A study of Mus musculus with 6 samples.

Results

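Plac8, Hp, Ly6c1, Ly6c2, F13a1, S100a8, S100a9 and Lcn2 are genes that mark blood monocytes and granulocytes or that myeloid cells secrete. They were followed here in mouse macrophages with and without oxidised low-density lipoprotein (oxLDL). The 8 genes were taken by name, with earlier results of these data known, and each had 1 row among the 24054 genes of both deposited tables. Bulk RNA was sequenced from macrophages grown for 7 days from the marrow of C57BL/6, WT mice in L929-conditioned medium, in which the growth factor M-CSF drives macrophage formation. For the last 24 hours the cells were kept either with oxLDL at 50 µg/ml (3 libraries) or without treatment (3 libraries). The labels of all 6 libraries give the same strain, genotype and culture. Each group holds the numbers WT1, WT2 and WT3. The titles contain an unexplained "mix", and the labels do not say whether libraries came from separate animals or cultures. The p-values therefore measure the spread between these libraries only, part of which may be technical. Where libraries are compared within their number, it is the spread left after differences between numbers are removed.

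Macrophages clear oxLDL by scavenger receptors and store its lipid. The genes followed here play different parts in myeloid cells. Lcn2 encodes lipocalin 2, which binds the iron carriers of bacteria, and Hp encodes haptoglobin, which binds free haemoglobin; both proteins are stored in neutrophil granules and are also made in the acute-phase response. S100a8 and S100a9 encode the subunits of calprotectin, an abundant calcium- and zinc-binding protein of neutrophils and monocytes. Ly6c1 and Ly6c2 encode small GPI-anchored surface proteins detected together as Ly6C, the marker that parts classical from non-classical mouse monocytes. Plac8 encodes a small cysteine-rich protein of myeloid and lymphoid cells, and F13a1 the catalytic subunit of the transglutaminase factor XIII, expressed by monocytes and tissue macrophages. As monocytes mature into macrophages, Ly6C, Plac8 and calprotectin transcripts are normally lost.

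Libraries held 13546572 to 15559310 expected counts (counts that RSEM estimates by dividing reads which map to several genes). The libraries numbered 3 stood apart: Xist, transcribed from the inactive X chromosome, measured 0.338 and 0.0728 CPM there and 344 to 966 CPM in the other 4. The cells of number 3 thus differed in origin from those of numbers 1 and 2. Effects of that origin and of the number cannot be told apart. CPM is the authors' depth-normalised read count, in which library sizes carry TMM factors. Macrophage markers were abundant. The 10 genes of a marker list summed to 36511, 27536 and 12993 CPM in untreated libraries 1, 2 and 3. With oxLDL the sums were lower in every pair, at 16163, 9174 and 11378 CPM. Most of each sum was Lyz2 and Emr1. Of the 10 genes 9 had a negative log2 fold change, 3 fell (Fcgr1, Aif1 and Spi1) and 0 rose. The exception was Cd68, at 746, 1094 and 1183 CPM untreated and 1609, 1634 and 1337 CPM with oxLDL. It was higher with oxLDL in all 3 pairs but missed the threshold (0.62 ± 0.25, edgeR adjusted p = 0.187). Markers of neutrophils were scarce: 9 listed genes, among them Mpo, Elane, Ltf, Camp and Ngp, summed to 5.41 to 24.7 CPM. Elane, Camp and Retnlg had at most 5 counts in any library. The sums of the T cell, B cell, NK cell, erythroid, mast cell, eosinophil, dendritic cell, progenitor and stromal lists stayed between 0 and 38.3 CPM per library, mostly from Cd79b, Cd4 and Kit. Cd79b, a B cell receptor chain, fell (-1.83 ± 0.26), and its part in the results was not tested, while Cd3e, Ncr1 and Col1a1 had at most 2 counts in any library.

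All 7 of the genes that could be tested were lower with oxLDL by their fitted value, and 3 of them fell: Plac8, Hp and Lcn2. Plac8 dropped the furthest, from 19.2 ± 5.60 to 1.32 ± 1.01 CPM (SD, n = 3 per group). Ly6c2, S100a9, S100a8 and F13a1 did not pass the test, and Ly6c1 was too low to be tested, with at most 8.45 expected counts in any library. The test was edgeR's quasi-likelihood test with the library number as a term of the model, so that libraries are compared within their number, and an adjusted p below 0.05 over all 11400 genes that passed the count filter counted as past the threshold. The words "rose" and "fell" refer to that test. It called 5.89% of all tested genes, 3.98% lower and 1.91% higher, against 3 lower and 0 higher of the 7 tested genes here. The median log2 fold change was -2.01 over the 7 genes and 0.01 over all tested genes.

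The calls depend on the number being a term. In edgeR without it, 0 of the 7 genes and 0 of 11400 passed (smallest adjusted p of the 7: 0.0865, for Plac8), while 3 of the 7 and 14.7% of all tested genes had an unadjusted p under 0.05. DESeq2 with the number as a term called 5 of the 7 lower, adding Ly6c2 and S100a9, and called 10.1% of all tested genes lower; without it DESeq2 called 2 of the 7 and 4.83% of all tested genes lower. With pair 1 or pair 2 left out and the number kept as a term, edgeR called 0 of the 7 and 0 of all tested genes. The oxLDL libraries all lay below the untreated ones, with no overlap, for Plac8, Ly6c2 and S100a9, that is 3 of 7 genes against 10.2% of all tested genes. In 6 of 7 genes oxLDL was lower in all 3 numbered pairs, F13a1 being the exception, against 26.5% of all tested genes. Because this was bulk RNA, fewer cells of a type and less RNA per cell cannot be told apart.

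**Figure D1:**
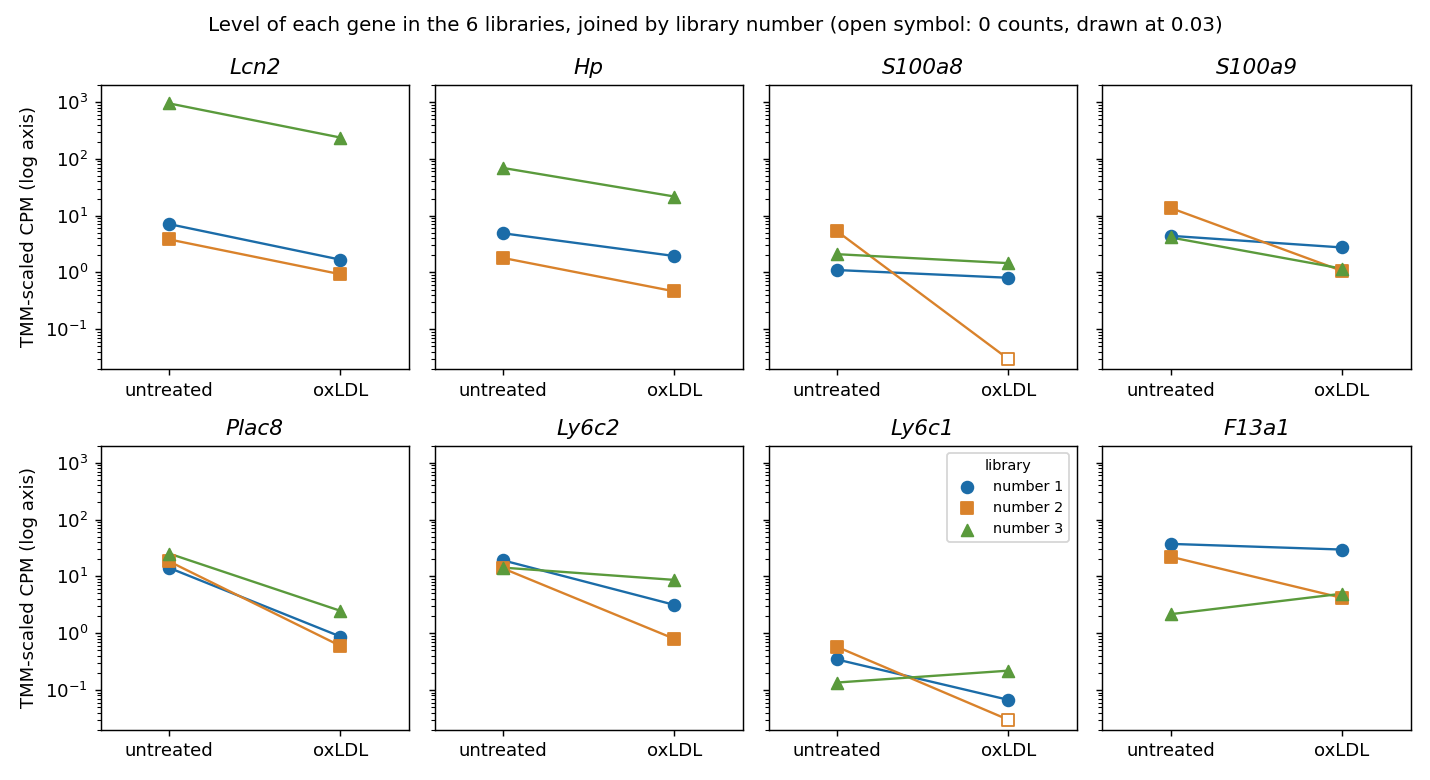
Level of each of the 8 genes (TMM-scaled CPM, log axis) in the untreated and oxLDL libraries. Points are single libraries, lines join libraries of the same number, and open symbols mark 0 counts. Lcn2 and Hp run in parallel lines set far apart by number, with number 3 at the top, Plac8 drops in all 3 pairs from 14.1 CPM or more to 2.48 CPM or less, and F13a1 crosses.

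Of the secreted proteins, Lcn2 had the widest range of levels and the most even response. It measured 7.09, 3.81 and 945 CPM in untreated libraries 1, 2 and 3, and 1.68, 0.929 and 237 CPM with oxLDL. Library 3 was 173-fold above the mean of libraries 1 and 2 without treatment and 182-fold above it with oxLDL, and the groups overlap widely if the numbers are ignored. Within pairs the untreated level was 4.23, 4.10 and 3.99 times the oxLDL level in pairs 1, 2 and 3. Lcn2 fell, at -2.03 ± 0.14 on the log2 scale (SE; edgeR adjusted p = 0.0278 in the model with the number, 0.764 without it). The SD of its 3 log2 ratios was 0.042, while the median over 11202 genes with more than 3 counts in every library was 0.27, and 2.33% of those genes had an SD as small. Counting error was wider than that spread: 25 and 14 counts lay behind the oxLDL values of pairs 1 and 2, and the 95% counting intervals of the 3 folds were 2.71 to 6.83, 2.24 to 7.999 and 3.84 to 4.14. These intervals, exact binomial ones on the 2 counts of a pair, cover counting error only.

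Hp shared this arrangement. Its levels were 4.89, 1.80 and 69.1 CPM in untreated libraries 1, 2 and 3 and 1.95, 0.465 and 21.7 CPM in the oxLDL libraries. Library 3 was 20.7-fold above the mean of the other two without treatment and 18.0-fold with oxLDL. The untreated level was 2.51, 3.87 and 3.18 times the oxLDL level in pairs 1, 2 and 3. Hp fell, with a value of -1.61 ± 0.17 on the log2 scale (edgeR adjusted p = 0.0286 in the model with the number, 0.697 without it). Across the 6 libraries the log2 CPM of Hp and Lcn2 correlated at r = 0.98, a description over libraries that share number and treatment.

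The difference between numbers was tested with the F test of the number term in the same edgeR fit, a comparison added after the values had been seen. Lcn2 (adjusted p = 0.00225) and Hp (adjusted p = 0.00605) passed it, and the other 5 tested genes did not (adjusted p from 0.139 for F13a1 to 0.872 for S100a8), against 7.75% of all tested genes. The neutrophil list summed to 5.41 and 6.99 CPM in libraries 3, and to 9.86 to 24.7 CPM in the other 4. Of other granulocyte genes, Mmp9, gelatinase B, was highest in libraries 3 (7.16 and 8.01 CPM against 0.398 to 2.37 CPM), but its number term missed the threshold (adjusted p = 0.0919, F test). Csf3r was highest in untreated library 3 (253 CPM) but not in oxLDL library 3 (98.8 CPM against 100.4 CPM in oxLDL library 1). A wider list of 25 granulocyte genes summed to 937, 1051 and 756 CPM in untreated libraries 1, 2 and 3. With oxLDL its sums were 682, 719 and 304 CPM, so the sum was lowest in libraries 3. Anxa1 alone held 332, 561 and 254 CPM of the untreated sums and 535, 622 and 109 CPM of the oxLDL sums. The order of the sums thus leans on Anxa1 and does not hold for each gene. With oxLDL Fpr1 and Fpr2, like Mmp9, were highest in library 3, while Csf3r was not. The macrophage list also had a lower sum in untreated library 3 (12993 CPM) than in untreated libraries 1 and 2 (36511 and 27536 CPM). Among untreated libraries its genes Cd68 and Fcgr1 were highest in library 3, and its other genes were lowest there. Whether any of these genes or lists had a part in the Lcn2 and Hp levels was not tested.

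**Figure D2:**
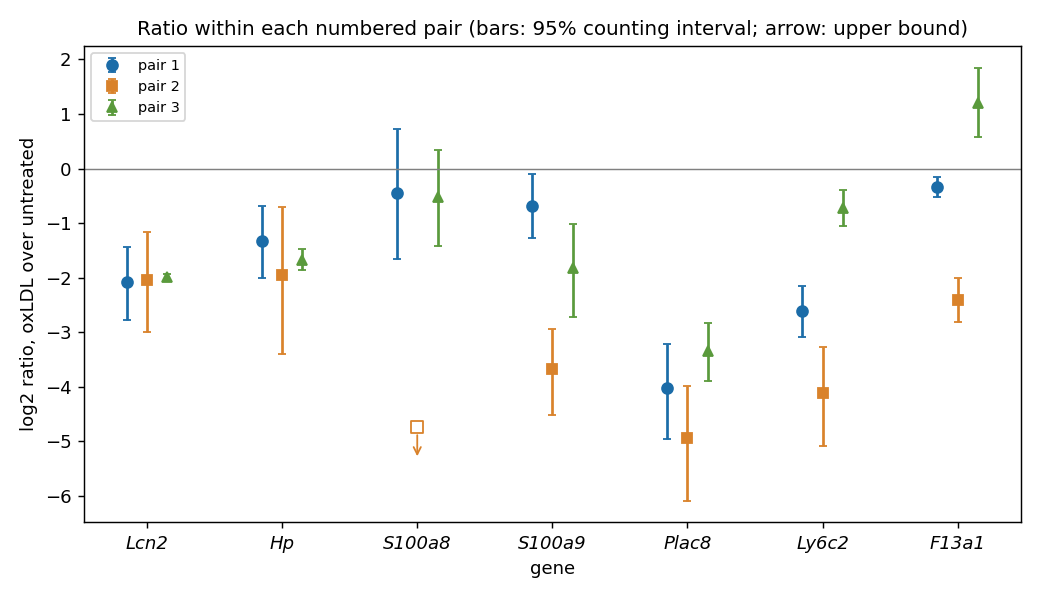
Log2 ratio of oxLDL over untreated within each numbered pair for the 7 tested genes, with 95% counting intervals as bars; the open symbol with an arrow is an upper bound, where oxLDL library 2 had 0 counts of S100a8. The 3 ratios of Lcn2 lie between -2.08 and -1.996, whereas those of Ly6c2 run from -4.11 to -0.72 and those of F13a1 from -2.40 to 1.196.

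The calprotectin genes were low throughout. S100a9 measured 4.41, 13.6 and 4.12 CPM in untreated libraries 1, 2 and 3, and 2.75, 1.06 and 1.17 CPM with oxLDL. Every oxLDL value was below every untreated value, but the untreated level was 12.8 times the oxLDL level in pair 2 and only 1.60 and 3.54 times in pairs 1 and 3. The log2 fold change of -2.01 ± 0.64 did not pass (edgeR adjusted p = 0.126; 0.226 without the number as a term), while DESeq2 with the number called it (adjusted p = 0.00968). S100a8, its partner subunit, measured 1.10, 5.32 and 2.09 CPM untreated, and 0.805, 0 and 1.46 CPM with oxLDL. Pair 2 again differed most: 74 counts stood against 0, a level at least 26.7-fold lower with oxLDL when the 0 is set to 3 counts of that library. In pairs 1 and 3 the folds were 1.37 and 1.44, with counting intervals of 0.607 to 3.17 and 0.794 to 2.66, so no difference was detectable at this depth there. The log2 fold change of S100a8 was -1.80 ± 1.197 (edgeR adjusted p = 0.375).

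Of the neutrophil genes that passed the filter, Ltf, Ngp and Cxcr2 were highest in untreated library 2, where both calprotectin genes were highest. Ltf, lactoferrin of the secondary granules, measured 6.32 CPM there and 2.20 and 0.473 CPM in untreated libraries 1 and 3, and Ngp, neutrophilic granule protein, measured 9.05, 4.20 and 0.676 CPM in the same order. Mmp8 instead was highest in oxLDL library 2 (8.76 CPM, against 3.23 CPM in untreated library 2). The whole neutrophil list summed to 24.7 CPM in untreated library 2 and to 11.8 CPM in oxLDL library 2. Most of the latter sum was Mmp8 and Cxcr2 (2.79 CPM), while Ltf measured 0.0664 CPM and Ngp 0.199 CPM in oxLDL library 2. Whether cells with granule transcripts had a part in the S100a8 and S100a9 values was not tested.

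Plac8 showed the largest fold of the tested genes. It measured 14.1, 18.3 and 25.2 CPM in untreated libraries 1, 2 and 3, and 0.872, 0.597 and 2.48 CPM with oxLDL. All 3 untreated libraries lay far above all 3 oxLDL libraries. The untreated level was 16.2, 30.7 and 10.2 times the oxLDL level in pairs 1, 2 and 3. Plac8 fell, at -3.99 ± 0.33 on the log2 scale (edgeR adjusted p = 0.0286 in the model with the number; -3.88 ± 0.59 and 0.0865 without it). Library 3 was highest in both groups, 1.55-fold above the mean of libraries 1 and 2 without treatment and 3.37-fold with oxLDL, and the number term of Plac8 missed the threshold (adjusted p = 0.183).

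Windows of 250 bases before the RefSeq start (GRCm38.p6) of the called genes with an entry, Lcn2 and Plac8, are shown because both genes fell. Capitals mark matches, on either strand, to TTNNGNAA, letters that C/EBP factors of the granulocyte and monocyte lineages bind, and to GAGGAA, the core that the lineage factor PU.1 binds; the marked matches do not overlap. Both windows are given 5′ to 3′ on the gene's strand, which is the minus strand for both: Lcn2 at chr2:32387740-32387989 and Plac8 at chr5:100572206-100572455.
Lcn2: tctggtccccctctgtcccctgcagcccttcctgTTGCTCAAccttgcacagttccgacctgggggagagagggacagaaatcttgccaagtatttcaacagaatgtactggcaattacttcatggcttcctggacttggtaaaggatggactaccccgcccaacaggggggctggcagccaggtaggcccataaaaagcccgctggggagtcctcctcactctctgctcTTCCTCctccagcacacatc
Plac8: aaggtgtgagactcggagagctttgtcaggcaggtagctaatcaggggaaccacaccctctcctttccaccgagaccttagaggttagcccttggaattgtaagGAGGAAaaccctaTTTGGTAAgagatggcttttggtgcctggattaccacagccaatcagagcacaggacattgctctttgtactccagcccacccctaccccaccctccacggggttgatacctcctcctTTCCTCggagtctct
The first set of letters was in 8 of the 11 windows of 7 of the genes and in 36.8% of 32851 windows of all genes, and the second in 8 of 11 and in 23.3%. The 11 windows are not separate. Those of Ly6c2 overlap and share a match to each set, and those of Ly6c1 overlap too. The difference between these shares was not tested. A second Plac8 window, not shown, held a match to the first set and none to the second. A match describes letters in a window and is not a measured binding site.

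Ly6c2 was the main source of Ly6c reads. It measured 19.1, 13.8 and 14.3 CPM in untreated libraries 1, 2 and 3, and 3.15, 0.797 and 8.67 CPM with oxLDL. The groups did not overlap, but oxLDL library 3 kept a level near the untreated range while oxLDL library 2 was almost without the transcript. The untreated level was 6.07, 17.3 and 1.64 times the oxLDL level in pairs 1, 2 and 3. With this spread the log2 fold change of -2.28 ± 0.66 did not pass (edgeR adjusted p = 0.106; 0.333 without the number as a term). DESeq2 with the number called Ly6c2 lower (adjusted p = 0.000541). In edgeR without pair 3 Ly6c2 fell, at -3.16 on the log2 scale (adjusted p = 0.00669), beside Plac8, Hp and Lcn2, so that 4 of 7 genes were called lower against 15.8% of all genes tested there.

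Ly6c1 was near the limit of detection. Its expected counts were 4.71, 8.45 and 2.27 in untreated libraries 1, 2 and 3, and 1.23, 0 and 3.29 with oxLDL, or 0.0671 to 0.575 CPM where it was above 0. Where Ly6c1 was above 0 the expected counts of both Ly6c genes were not whole, yet their sum was whole (283, 200 and 213 untreated and 48 and 122 with oxLDL, tolerance 0.005), as it is when reads are divided between these genes alone. Ly6c1 received 0% to 4.22% of the sum. The coding sequences show how little parts them. Their first 90 coding bases hold most of the differences, and capitals mark the bases that differ between the GENCODE M21 transcripts (GRCm38), read 5′ to 3′.
Ly6c1: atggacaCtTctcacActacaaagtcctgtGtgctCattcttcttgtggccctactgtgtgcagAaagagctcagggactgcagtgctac
Ly6c2: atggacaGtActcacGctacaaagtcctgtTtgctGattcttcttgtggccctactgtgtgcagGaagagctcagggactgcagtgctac
The genes differ at 9 of 396 coding bases, 6 of them in this stretch (97.7% identical), and the longest stretch without a difference is 188 bases, longer than a read of 150 bases. Only coding bases of 1 transcript per gene were compared, and the reads were paired, so this does not measure how well fragments tell the genes apart. Reads were divided between the genes, as the fractions show, so the split is an estimate. With their counts summed into 1 row the log2 fold change was -2.29 ± 0.67 (edgeR adjusted p = 0.109).

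F13a1 had no common direction. It measured 37.3, 22.1 and 2.16 CPM in untreated libraries 1, 2 and 3, and 29.7, 4.18 and 4.95 CPM with oxLDL. The untreated level was 1.26 and 5.29 times the oxLDL level in pairs 1 and 2, and 0.437 times in pair 3, where oxLDL was higher. Counting intervals of 1.11 to 1.43, 4.02 to 7.06 and 0.277 to 0.674 keep these folds apart from 1, but each pair holds 1 library per treatment, so a difference between pairs was not tested. The log2 fold change was -0.59 ± 0.68 and missed the threshold (edgeR adjusted p = 0.601), and it became 0.31 without pair 2. Among untreated libraries F13a1 was lowest in library 3, where Lcn2 and Hp were highest: that library held 0.0727 times the mean of untreated libraries 1 and 2.

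**Figure D3:**
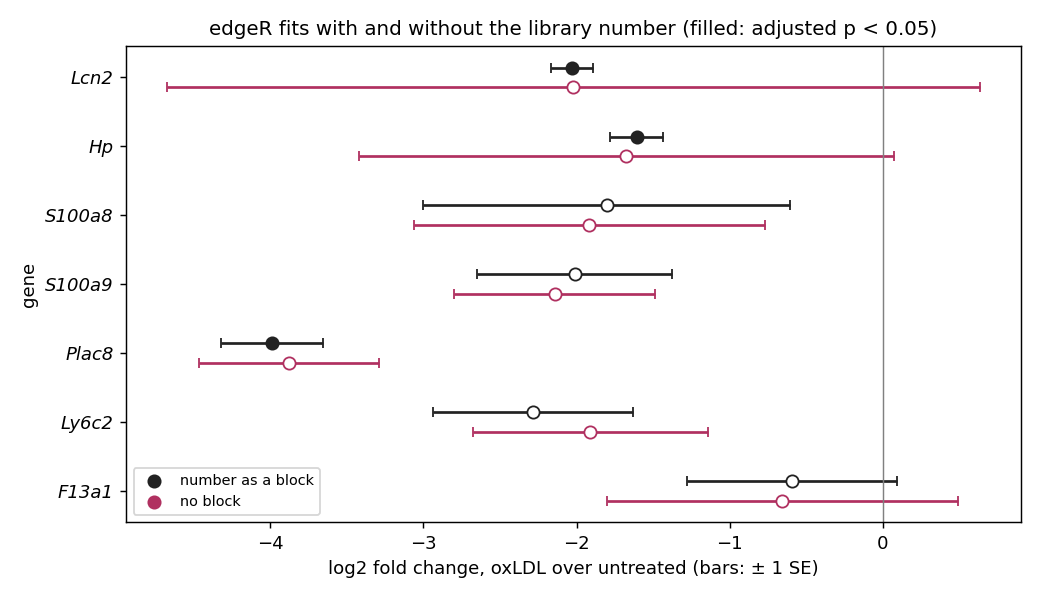
Log2 fold change of oxLDL over untreated for the 7 tested genes, with bars of 1 SE, in edgeR with the number as a block (black) and without it (red); filled points passed an adjusted p of 0.05. The values hardly move between the fits, but the SE of Lcn2 goes from 0.14 to 2.65 and that of Hp from 0.17 to 1.74 when the number is left out.

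Other genes of the same cell types and pathways were followed in 8 lists, of which 0 genes passed in edgeR without the number as a term. Of granulocyte genes, 25 of 28 listed symbols had a row and 11 passed the count filter; 1 fell, 0 rose, and the list's median log2 fold change was -1.16. The gene that fell was Csf3r, the receptor for the growth factor G-CSF, at 176, 181 and 253 CPM in untreated libraries 1, 2 and 3 and 100.4, 72.9 and 98.8 CPM with oxLDL (-1.16 ± 0.16, edgeR adjusted p = 0.0362). The formyl peptide receptors Fpr1 (-4.54 ± 1.06) and Fpr2 (-3.57 ± 1.09) had larger values that missed the threshold (edgeR adjusted p = 0.0763 and 0.118). Mmp8, the neutrophil collagenase, had a positive value of 1.15 ± 0.24 and missed the threshold (adjusted p = 0.0641). Anxa1, annexin A1, was the most abundant gene of the list, at 332, 561 and 254 CPM untreated and 535, 622 and 109 CPM with oxLDL (-0.11 ± 0.41).

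Classical monocyte genes moved in both directions: of 14 tested, 4 fell and 1 rose, with a median of -0.65. Those that fell were Ms4a4c (-4.41 ± 0.75) and Ms4a6c (-2.79 ± 0.38), membrane proteins of the MS4A family, the inhibitory lectin Clec12a (-2.61 ± 0.27), and Ifitm3 (-1.69 ± 0.23), an interferon-induced protein that hinders virus entry. Clec4e, the glycolipid receptor Mincle, rose by 2.02 ± 0.32 on the log2 scale, from 47.0, 29.0 and 3087 CPM in untreated libraries 1, 2 and 3 to 176, 191 and 8413 CPM. Its libraries 3 were far above the others in both groups, as for Lcn2 and Hp (adjusted p of the number term 0.0103). Ccr2, the chemokine receptor that carries classical monocytes out of the marrow, went from 290, 283 and 16.4 to 107, 25.4 and 8.23 CPM, a value of -1.98 ± 0.54 that missed the threshold (edgeR adjusted p = 0.0977). Thbs1 (2.30 ± 0.52), Mgst1 (1.51 ± 0.42) and Vcan (0.97 ± 0.28) had positive values that also missed it (edgeR adjusted p = 0.0726, 0.0994 and 0.105). Of the 14 genes, 9 had a negative value.

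Of non-classical monocyte genes, 4 of 8 tested fell and 0 rose (median -2.02): the integrin chain Itgal (-4.36 ± 0.70), the B cell and monocyte transcription factor Pou2f2 (-2.41 ± 0.16), the sialoprotein Spn (-2.23 ± 0.28) and the fractalkine receptor Cx3cr1 (-1.81 ± 0.29). Cd300e, an activating receptor, had a value of -4.43 ± 0.79 that missed the threshold (edgeR adjusted p = 0.0504). Of the 8 genes, 5 had a negative value. Treml4 had a positive value of 2.75 ± 0.81 that missed the threshold (edgeR adjusted p = 0.108). Eno3 (0.41 ± 0.30) and Nr4a1 (0.13 ± 0.37) were positive too and did not pass.

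Among relatives of the Ly6c genes, both that passed the filter fell: Ly6e (-2.45 ± 0.22) and Ly6a, the Sca-1 antigen (-3.33 ± 0.38). Ly6a measured 235, 350 and 307 CPM in untreated libraries 1, 2 and 3 and 23.6, 18.7 and 55.9 CPM with oxLDL. The other 8 Ly6 genes with a row were below the filter, 3 of them at 0 in all libraries. Of 6 tested relatives of the calprotectin genes, 1 had a negative value, 1 rose and 0 fell, with a median of 0.26: S100a1 went from 44.3, 43.8 and 51.3 to 136, 210 and 119 CPM (1.70 ± 0.24, edgeR adjusted p = 0.0362). S100a4 measured 194, 209 and 14.5 CPM untreated and 252, 230 and 11.9 CPM with oxLDL, and differed by number (adjusted p of the number term 0.00965) and not detectably by treatment (0.09 ± 0.17).

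Receptors and partners of the proteins did not pass, with 0 of 6 tested genes called and a median of 0.01. Tlr4, a receptor for calprotectin, measured 214, 207 and 85.1 CPM untreated and 202, 157 and 93.7 CPM with oxLDL. Cd163, which takes up haptoglobin bound to haemoglobin, measured 2.62, 2.95 and 0.0676 CPM untreated and 4.63, 1.93 and 0.0728 CPM with oxLDL, so that Hp was highest where Cd163 was at 1 count. Slc22a17, the lipocalin 2 receptor, had at most 4 counts in any library. Lrp1 (-0.66 ± 0.27) and Tgm2, another transglutaminase (1.60 ± 0.42), did not pass either.

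Of 9 tested transcription factors, 1 fell, Spi1, which encodes PU.1 (-1.13 ± 0.14), and 1 rose, Cebpa (0.76 ± 0.13), which encodes C/EBP alpha; the median was -0.38. Nfkbiz, which encodes the IkB-zeta cofactor known for Lcn2 induction, measured 430, 290 and 47.4 CPM untreated and 18.7, 12.5 and 48.7 CPM with oxLDL (-3.23 ± 1.21, edgeR adjusted p = 0.169). Among untreated libraries Nfkbiz was lowest in library 3, where Lcn2 was highest. Among oxLDL libraries Nfkbiz was highest in library 3, as Lcn2 was. Whether Nfkbiz had a part in the Lcn2 levels was not tested. Cebpb was higher in libraries 3 (239 and 247 CPM) than in the other 4 (54.0 to 84.2 CPM), and Cebpd was lower there (8.85 and 5.46 CPM against 21.6 to 124 CPM), with adjusted p of the number term of 0.0247 and 0.0434. Hif1a, a hypoxia-inducible factor, was also higher in libraries 3 (271 and 573 CPM against 108 to 142 CPM; adjusted p of the number term 0.0374).

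Secreted acute-phase genes did not pass, with 0 of 3 tested called and a median of -2.44, but all 3 were highest in library 3 of both groups, as Lcn2 and Hp were. Saa3, serum amyloid A of macrophages, measured 107, 21.4 and 7603 CPM in untreated libraries 1, 2 and 3, and 12.01, 2.66 and 3186 CPM with oxLDL. It was lower with oxLDL in all 3 pairs (-2.44 ± 0.47, edgeR adjusted p = 0.0560), and its number term passed (adjusted p = 0.0134). Orm1, orosomucoid, was below the filter and had at most 2 counts in libraries 1 and 2, yet measured 43.8 and 73.7 CPM in untreated and oxLDL library 3. Complement C3 measured 731, 846 and 2064 CPM untreated and 175, 62.6 and 2058 CPM with oxLDL (-1.95 ± 0.80).

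**Figure D4:**
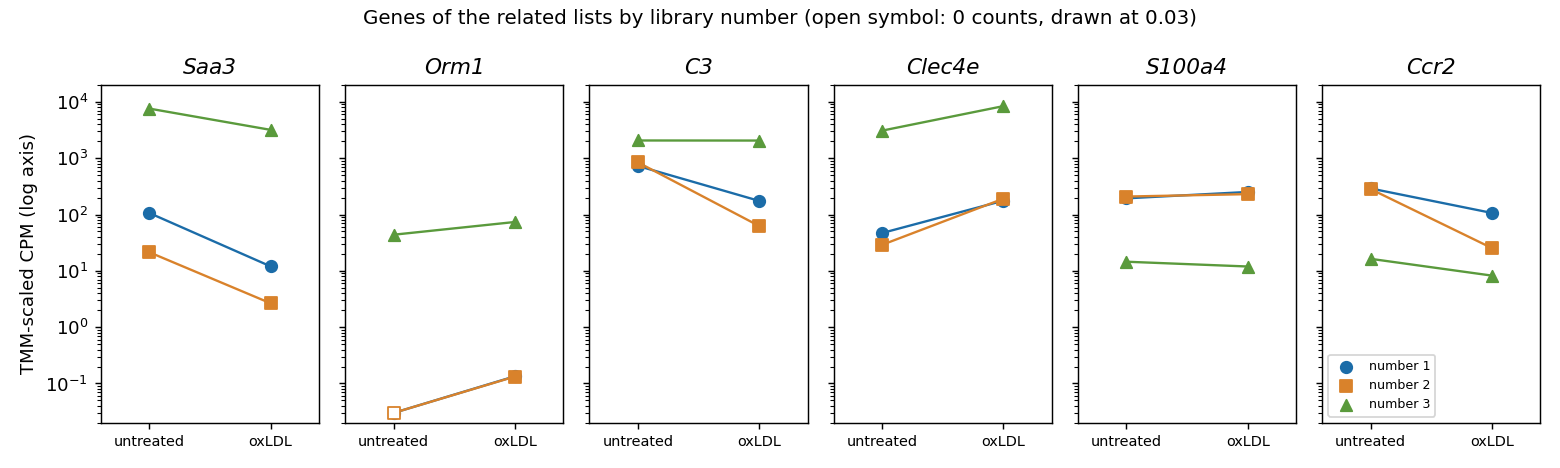
Levels (TMM-scaled CPM, log axis) of 6 genes of the related lists, chosen after their values were seen, by treatment and library number; points are single libraries, and open symbols mark 0 counts. Libraries 3 lie above the others for Saa3, Orm1, C3 and Clec4e and below them for S100a4 and Ccr2; numbers 1 and 2 nearly coincide for Orm1.

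**Figure D5:**
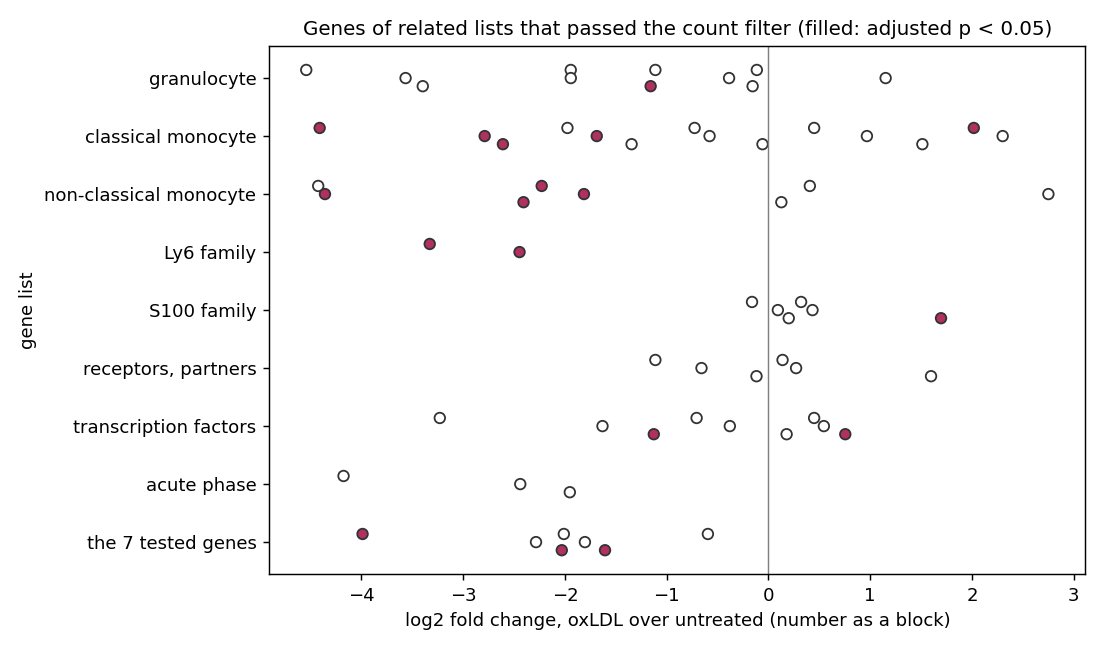
Log2 fold change of oxLDL over untreated (edgeR, number as a block) for the genes of each related list that passed the count filter; each point is a gene, and filled points passed an adjusted p of 0.05. Called genes are mostly on the lower side, apart from Clec4e, S100a1 and Cebpa, and the 7 tested genes are all below 0.

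Genes with the most similar profile over the 6 libraries were found by Pearson correlation of log2 CPM among all tested genes, a description without a test. For Plac8 they were Mx1, Ifi35 and Ly6a (r = 0.997, 0.996 and 0.995). For Lcn2 they were Mex3c, St3gal1 and Lats1 (r from 0.997 to 0.999), and for Hp Zrsr2, App and Abhd13 (0.992 to 0.994). For Ly6c2 they were Lats2, Fpr2 and Stag1 (0.990 to 0.993). For F13a1 they were Mier1, Ago1 and Mdc1 (0.985 to 0.990), for S100a8 Tmem194, Sp2 and Tceanc2 (0.981 to 0.999), and for S100a9 Gen1, Mrpl49 and Ppil2 (0.984 to 0.995). None of the 7 genes was among the 3 closest of another.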

How the data were processed

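Poly(A) RNA of 6 libraries was sequenced as paired reads from a stranded kit, per the labels' protocols; how the counting used strand, and the annotation, are not given in the sources used here. Expected counts per gene, deposited by the authors, were estimated with RSEM 1.2.15 after Bowtie2 2.1.0, per the submitters' processing notes, which list the human build hg19 although the samples and symbols are mouse. The authors also deposited a normalised signal, CPM of TMM-scaled library sizes made with edgeR per the same notes; its columns held whole reads times a constant (100% whole within 0.005), and at least 99.9% of values equalled the rounded expected counts. Levels are that signal.

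Expected counts were rounded, filtered with filterByExpr (minimum count 10, minimum total 15), scaled with TMM factors of 0.942 to 1.06 and tested with the robust quasi-likelihood test of edgeR 4.0.16 in R 4.3.3, with number and group as terms and Benjamini-Hochberg adjustment over 11400 genes. Each SE is the absolute fold change over the root of F. DESeq2 1.42.0 and limma-voom (limma 3.58.1) were alternatives. Each of the 8 genes is named whatever its test. In the related lists, called genes are named and, where fewer than 2 were called, the 2 of highest mean CPM; any other gene named was chosen after its values were seen. The 3 genes most correlated with each tested gene are given. The genes and lists were chosen with earlier results of these data known.

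Groups and numbers came from the titles. Deviations of log2 CPM (prior count 2) from group means correlated at r = 0.66, 0.45 and 0.70 between libraries of the same number, and the numbers were taken to pair the libraries. Untreated 2 correlated more with oxLDL 1 (0.63) than with oxLDL 2 (0.45). With number 3 far from the others, deviations from a group mean make libraries 1 and 2 alike. The correlations therefore cannot decide the pairing of numbers 1 and 2, which rests on the titles. A floor of 3 counts was used for a library at 0.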

Additional observations from a re-analysis of the deposited data

How the results depend on the processing

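All tests with a replicate block use the library number as the block. The count of genes called in edgeR was 672 with the replicate block and 0 without it; it was 1853 in DESeq2 with the block and 10 in limma-voom without it. Of the 7 tested genes 3 were called in edgeR with the block, 0 without it, 5 in DESeq2 with the block and 0 in limma-voom without the block. With the block and 1 numbered pair left out, genes called ran from 0 (without pair 1 or without pair 2) to 3446 (without pair 3), and tested genes called from 0 to 4, with the same exceptions. Without the block and with 1 library left out they ran from 0 to 737 (without untreated library 3; 31 without oxLDL library 3) and from 0 to 1. The direction turned in 4 of 132 alternative fits of single genes: without untreated library 3 and without the block, Lcn2 took a value of 3.88 and Hp of 1.27, and F13a1 took 0.31 without pair 2 and 0.086 without untreated library 1 and without the block. In the remaining fits values stayed negative: 97 kept their side of the threshold, 27 lost a call of Plac8, Hp or Lcn2, and 4 gained one for Ly6c2 or S100a9. Over the alternatives Plac8 ranged from -4.70 to -3.53, Ly6c2 from -3.16 to -1.42, S100a9 from -2.79 to -1.21 and S100a8 from -2.80 to -0.49. Lcn2 ranged from -7.95 to 3.88 and Hp from -4.41 to 1.27, the lowest values being those without oxLDL library 3 and without the block. Where a fit without the block lost 1 library, the rest of a group was 2 libraries. The reads recovered from the deposited signal, the summed Ly6c row, DESeq2 without the block and limma-voom without the block were added after seeing the data. The adjusted p of Lcn2 in DESeq2 without the block was not given by the tool. Depth limits S100a8 and Ly6c1 most: 3 counts of a library were worth 0.199 to 0.219 CPM.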

Other observations

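A few genes of the related lists that were too low for testing were above 10 counts almost solely in libraries 3. Ly6i, a relative of Ly6c on the same cluster, measured 4.46 and 1.68 CPM in untreated and oxLDL library 3 and at most 0.431 CPM in the other 4. Orm2 measured 2.77 and 5.32 CPM there and at most 0.551 CPM elsewhere. Hamp, which encodes the iron regulator hepcidin, had 20 counts in oxLDL library 3 and Saa1 had 18 counts in untreated library 3, and both were at 0 in libraries 1 and 2 of either group. Kit, the stem cell factor receptor of progenitors and mast cells, measured 2.68, 7.55 and 21.7 CPM in untreated libraries 1, 2 and 3 and 23.1, 26.1 and 36.5 CPM with oxLDL (log2 fold change 1.79 ± 0.48, edgeR adjusted p = 0.0925), while Cd34 had at most 6 counts in any library. These genes were picked after their values were seen.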
